A study of Vitis vinifera with 24 samples.

Results

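The 100 genes described here are those whose transcript level differed least between the treatments of a grapevine leaf experiment. They were taken from a table of 35840 genes in which 3342 had at least 20 FPKM in all 24 libraries. FPKM is a fragment count scaled by transcript length and by the mapped fragments of each library. For each of the 3342 genes, the mean of log2(FPKM + 1) was computed in each of 8 groups, and the 100 genes with the smallest difference between the highest and the lowest group mean were taken. This difference is called the range below. The group means chose the genes, so their ranges and all differences between groups are descriptions and not findings.

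RNA was sequenced from leaves of self-rooted greenhouse cuttings of Vitis vinifera 'Thompson Seedless', the plant material that all groups share. The 8 groups of 3 replicates were untreated leaves (control), trehalose (Tre), low temperature at 4 ℃ (cold), NaCl, PEG6000, and trehalose together with each of these stresses (Tre+cold, Tre+NaCl, Tre+PEG6000). Treated leaves were taken at 48 h. Neither a sampling time for the control nor any dose is labelled. Whether replicates were separate plants is not said, and p-values therefore refer to the variation among these libraries, which may be technical. Trehalose is a sugar of 2 glucose units. NaCl was the salt treatment, and PEG6000 is a polymer used to withhold water osmotically.

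Genes whose transcripts stay level across conditions matter because relative methods of measuring expression, quantitative PCR among them, need an internal reference. In plants such references have often been taken from genes of basic cell upkeep, such as actins, tubulins, ubiquitins and elongation factors. A gene is steady only relative to a scale. FPKM divides by the fragments of the whole library, so a steady FPKM means a constant share of the mapped fragments, and it says nothing on the number of transcripts per cell. In bulk leaf tissue, fewer cells of a type and less RNA per cell cannot be told apart.

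The deposited table identifies genes by number, and 0 of these could be paired with a gene symbol in the RefSeq gene list, so the 100 genes are described by level and pattern and are given no function. For the same reason neither the families commonly used as references nor leaf cell type markers could be looked up among them. FPKM summed to between 597567 and 637648 per library, and the correlation of log2(FPKM + 1) between replicates was 0.994 to 0.997. Depth is unknown. The 100 genes held between 0.886% and 0.978% of the FPKM of a library.

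The ranges of the 100 genes went from 0.12 to 0.30 on the log2 scale, with a median of 0.26. These correspond to 1.09-fold, 1.23-fold and 1.196-fold between the highest and the lowest group. Over all 3342 genes past the floor the median range was 0.82, or 1.77-fold, and 1239 of them (37.1%) had a range of at least 2-fold. The limit of the list falls in a continuous distribution. The last 3 genes inside it, Vitvi06g00840, Vitvi09g00179 and Vitvi19g00121, had ranges of 0.2976, 0.2977 and 0.3003. The next 3 outside, Vitvi01g01815, Vitvi11g00252 and Vitvi19g01624, had 0.3010, 0.3018 and 0.3018.

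**Figure D1:**
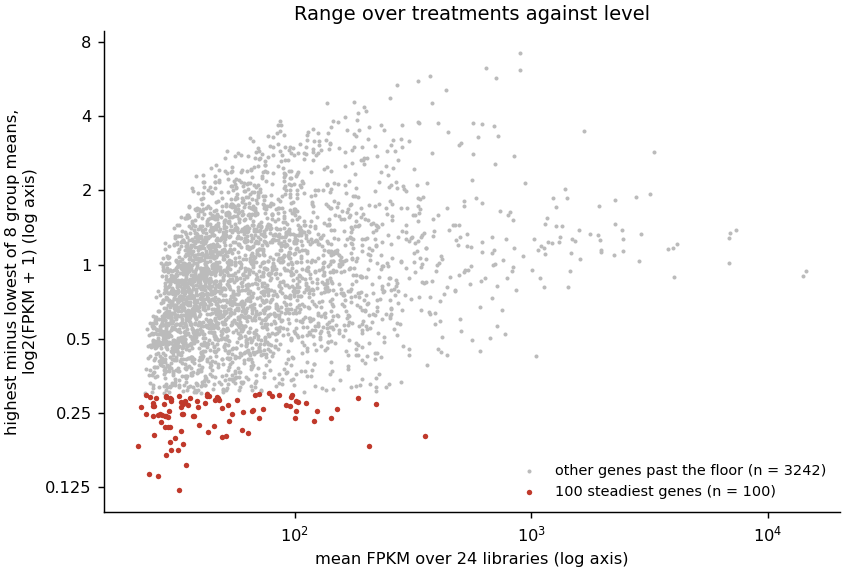
Range over the 8 group means of log2(FPKM + 1) against mean FPKM over 24 libraries, both on log axes, for the genes with at least 20 FPKM in every library. The 100 steadiest genes (red) have ranges of up to 0.3003 and lie between 21.7 and 356 FPKM, whereas the other genes (grey) reach 14549 FPKM.

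The steadiest genes were of moderate level. Their mean FPKM had a median of 37.3 (quartiles 29.1 and 65.9), against 56.9 for all genes past the floor (quartiles 38.2 and 102). When the 3342 genes were divided into 4 equal classes by mean FPKM, 10 of the 100 genes fell in the most abundant class, 20 and 19 in the middle classes and 51 in the least abundant. Only 12 reached 100 FPKM on average. The floor bears on this comparison, since a gene near 20 FPKM that varied strongly would have dropped below the floor in some library.

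Vitvi03g01287 had the smallest range, 0.12. It was at 33.8, 33.4 and 34.6 FPKM in the control libraries, at 33.6, 31.9 and 32.8 in Tre and at 32.6, 31.0 and 30.7 in cold. With trehalose and cold it was at 30.4, 30.6 and 32.7 FPKM, with NaCl at 29.5, 31.6 and 32.2 and with Tre+NaCl at 33.9, 31.1 and 34.3. PEG6000 libraries held 34.7, 33.0 and 33.2 FPKM and Tre+PEG6000 libraries 33.5, 32.6 and 31.9. Control was the highest group and NaCl the lowest, and their libraries did not overlap, while Tre+NaCl overlapped with control.

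Vitvi19g01641 was next, with a range of 0.14 and values between 24.8 FPKM in a Tre+cold library and 29.1 in a control library. Its group means ran from 25.2 ± 0.25 FPKM in PEG6000 to 27.9 ± 1.2 in control (SD, n = 3). Vitvi03g00160, the next with a range of 0.14, had the largest replicate spread of the 100 genes, a pooled SD of 0.093 on the log2 scale. Its Tre+PEG6000 libraries alone spanned 29.1, 24.5 and 22.6 FPKM, which covers most of its values in the other groups. Vitvi16g01514 (range 0.15) lay between 31.8 and 38.5 FPKM over the 24 libraries, and Vitvi05g01769 (range 0.17) between 25.9 and 30.8.

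**Figure D2:**
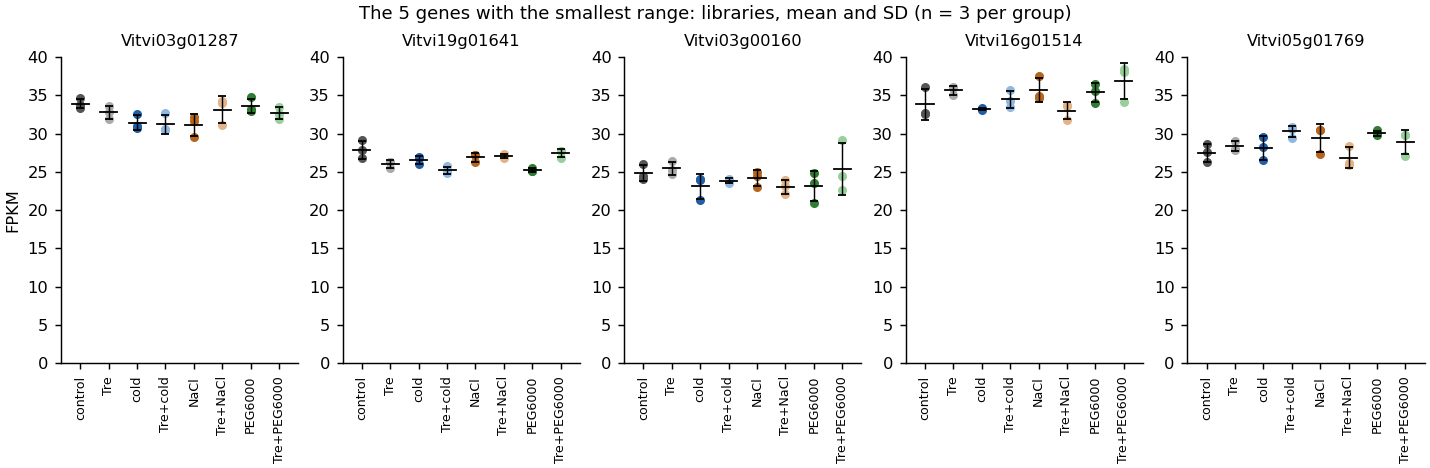
FPKM of the 5 genes with the smallest range in each library, with the group mean and SD (n = 3 per group), on axes that start at 0. All values lie between 21.0 and 38.5 FPKM, and Vitvi03g00160 shows its widest scatter in the Tre+PEG6000 libraries.

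The 3 most abundant of the 100 genes showed that a small range is found well above the floor too. Vitvi15g01640 averaged 356 FPKM with a range of 0.20. It was at 365, 361 and 360 FPKM in control, at 369, 371 and 381 in Tre+NaCl, its highest group, and at 345, 317 and 312 in Tre+PEG6000, its lowest. Those groups did not overlap, and the first Tre+PEG6000 library stood above the other two. Vitvi15g04595 averaged 222 FPKM (range 0.27), from 201 ± 4.3 FPKM in Tre+NaCl to 243 ± 9.2 in PEG6000 (SD, n = 3). Vitvi18g01161 averaged 207 FPKM (range 0.18), from 193 ± 0.97 FPKM in Tre+cold to 220.0 ± 12.5 in Tre+PEG6000.

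The 3 least abundant, Vitvi07g01492, Vitvi07g01885 and Vitvi06g00743, averaged 21.7, 22.5 and 23.6 FPKM. Each came close to the floor of 20 FPKM in its lowest library, at 20.2, 20.2 and 20.4 FPKM. Their ranges were 0.18, 0.27 and 0.30, so the least abundant members were found at both ends of the list.

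The replicates of the 100 genes were about as far apart as those of other genes. The replicate SD of log2(FPKM + 1), pooled within groups, had a median of 0.048 over the 100 genes (0.025 to 0.093) and 0.045 over all genes past the floor (0.013 to 0.34). This spread entered the choice only through the group means and through the floor, which every single library had to pass. Single libraries spread further than group means: over the 24 libraries the log2 difference between the highest and the lowest value had a median of 0.35 in the 100 genes, from 0.22 to 0.47, and 0.90 in all genes past the floor. The coefficient of variation of FPKM over the 24 libraries was 4.00 to 8.96% in the 100 genes with a median of 6.94%, against a median of 19.5% over the genes past the floor.

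The differences between groups were also set against the replicate spread, with shares near those of other genes. The highest and the lowest of the 8 groups did not overlap in 100 of 100 genes, and in 100% of the genes past the floor after rounding (3341 of 3342), since the most extreme pair of groups is picked for each gene. In limma's F test for any difference among the 8 groups, fitted on 20053 genes and called at a Benjamini-Hochberg adjusted p below 0.05, 97 of the 100 genes were called, where the share called was 98.8% of all genes tested and 99.9% of genes past the floor. The 3 that did not pass were Vitvi03g00160 (adjusted p = 0.247, limma), Vitvi16g00016 (0.0875) and Vitvi07g00254 (0.0878). They were singled out after their values were seen, and their replicate SDs of 0.093, 0.079 and 0.086 lie towards the upper end of the 100 genes.

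In single comparisons the 100 genes were called less often than the background, which follows from how they were chosen. Cold against control called 51 of the 100 genes, beside 83.5% of all genes tested and 86.9% of genes past the floor. Of these, 24 were higher and 27 lower, where 31.4% and 52.1% of genes tested were called in these directions. NaCl called 45, beside 64.9% of genes tested and 83.4% of genes past the floor, with 41 higher and 4 lower (46.9% and 18% of genes tested). The median log2 change under NaCl was 0.07 over the 100 genes, 0.13 over genes past the floor and 0.14 over genes tested. PEG6000 called 64, beside 77.1% and 91.7%, with 43 higher and 21 lower (42.6% and 34.5%). Trehalose called 20, beside 29% and 43.4%, with 2 higher and 18 lower (16.7% and 12.3%). These 4 comparisons share the control libraries.

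Trehalose with cold was compared with cold alone, and likewise for the other stresses. In the cold 32 of the 100 genes were called, beside 43.5% of genes tested and 66.2% of genes past the floor, with 11 higher and 21 lower with trehalose (26.5% and 17.1% of genes tested). Under NaCl 50 were called, beside 51.9% and 75%, with 3 higher and 47 lower (19.9% and 32%). Under PEG6000 52 were called, beside 76.5% and 86.5%, with 22 higher and 30 lower (43.6% and 32.9%), a balance that turned with the scaling as described below. The effect of trehalose under a stress differed from its effect in unstressed leaves (limma interaction) in 14 of the 100 genes for cold, 36 for NaCl and 41 for PEG6000, beside 35.6%, 43% and 67.5% of genes tested.

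Over these 7 comparisons 2 of the 100 genes were called in none, 26 in 3, and 1 in all 7. Of the genes tested 1.21% were called in none, 15.3% in 3 and 8.57% in all 7, and of the genes past the floor 0.0898%, 5.77% and 18.6%. The called differences were small: the largest was 0.29 on the log2 scale and the smallest 0.059. The 95% confidence intervals reached farthest above 0 in PEG6000 against control, up to 0.42, and farthest below 0 in Tre+NaCl against NaCl, down to -0.40.

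The largest called changes of single members show what passed for a change among them. In the cold Vitvi14g00349 was at 39.2, 38.8 and 38.1 FPKM against 32.1, 32.6 and 31.2 in control, a log2 change of 0.27 (SE 0.03, limma adjusted p = 7.17e-08). Vitvi04g01541 was at 39.3, 40.4 and 37.6 FPKM against 51.0, 46.6 and 46.9 (log2 change -0.29, SE 0.04, adjusted p = 7.75e-08). For both genes all 3 cold libraries lay outside the control values. With median-of-ratios scaling, described below, Vitvi04g01541 was no longer called in the cold (log2 change -0.02).

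Under NaCl Vitvi01g00524 was at 46.6, 44.8 and 50.5 FPKM against 40.5, 38.4 and 38.1 in control (log2 change 0.27, SE 0.05, limma adjusted p = 2.16e-05), and Vitvi14g01694 was at 27.4, 26.9 and 27.1 against 28.6, 31.2 and 29.4 FPKM (log2 change -0.13, SE 0.03, adjusted p = 0.0014). Neither pair of groups overlapped. The first of these calls was lost with median-of-ratios scaling (log2 change 0.08) and the second when libraries were scaled to a common sum (-0.07). Under PEG6000 Vitvi18g01971 was at 33.3, 31.2 and 34.2 FPKM against 24.5, 28.4 and 27.5 in control (log2 change 0.29, SE 0.06, adjusted p = 0.000327), a call lost with quantile normalization (0.03). Vitvi18g00333 was at 28.9, 29.5 and 29.6 FPKM against 36.4, 35.6 and 35.3 (log2 change -0.28, SE 0.03, adjusted p = 4.23e-08). Here too the groups stood apart.

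Vitvi19g00612 was the member that rose most with trehalose, both alone and in the cold. It was at 29.8, 29.7 and 30.6 FPKM in Tre against 24.9, 25.1 and 26.0 in control (log2 change 0.24, SE 0.04, limma adjusted p = 1.32e-05), and at 31.3, 30.6 and 30.6 in Tre+cold against 25.7, 26.9 and 25.6 in cold (0.23, SE 0.04, adjusted p = 7.46e-06). With NaCl and with PEG6000 the groups with trehalose were at 27.3 ± 0.29 and 27.3 ± 0.91 FPKM and those without at 28.3 ± 0.48 and 28.7 ± 1.5 (SD, n = 3). The gene with the largest fall in Tre leaves was Vitvi06g00312, at 21.9, 22.5 and 21.7 FPKM against 27.1, 24.7 and 26.7 in control (log2 change -0.24, SE 0.05, adjusted p = 0.000313).

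In Tre+cold leaves Vitvi08g01591 was at 29.7, 31.4 and 31.0 FPKM against 38.4, 35.2 and 34.9 in cold (log2 change -0.23, SE 0.05, limma adjusted p = 0.000496). In Tre+NaCl leaves Vitvi01g00524, the gene that rose most under NaCl, was at 39.3, 36.5 and 39.4 FPKM, and fell by 0.29 against NaCl (SE 0.05, adjusted p = 1.16e-05) to values that overlap with control. Vitvi10g02178 was at 29.9, 29.3 and 29.0 FPKM in Tre+NaCl against 26.8, 26.9 and 27.7 in NaCl (log2 change 0.11, SE 0.05, adjusted p = 0.0487). Its call was lost when any 1 of the 6 libraries compared was left out. In Tre+PEG6000 leaves Vitvi03g00200 was at 27.7, 27.6 and 30.8 FPKM against 22.9, 24.1 and 24.3 in PEG6000 (0.26, SE 0.05, adjusted p = 4.69e-05), and Vitvi14g01385 at 36.1, 36.2 and 35.7 against 45.7, 42.5 and 43.4 FPKM (-0.28, SE 0.04, adjusted p = 1.53e-07).

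The groups were not evenly represented among the highest and lowest of the 100 genes. PEG6000 was the highest group for 24 of them, NaCl for 21 and Tre+PEG6000 for 15. The lowest group was Tre+NaCl for 24, Tre+cold for 21 and Tre for 19. Among the genes past the floor, the highest group was PEG6000 for 31.9% and NaCl for 11.3%, with Tre+PEG6000 at 10.4%. The lowest was Tre+NaCl for 8.92%, Tre+cold for 16.2% and Tre for 13.4%, and most often cold, at 21.9%, and PEG6000, at 19.6%. Each gene's deviation from its own mean had a median over the 100 genes of 0.07, 0.05 and 0.07 in the NaCl libraries, where the genes past the floor had 0.11, 0.09 and 0.12. In the cold libraries the medians were -0.01, -0.01 and -0.04 for the 100 genes and -0.10, -0.11 and -0.11 for the genes past the floor.

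**Figure D3:**
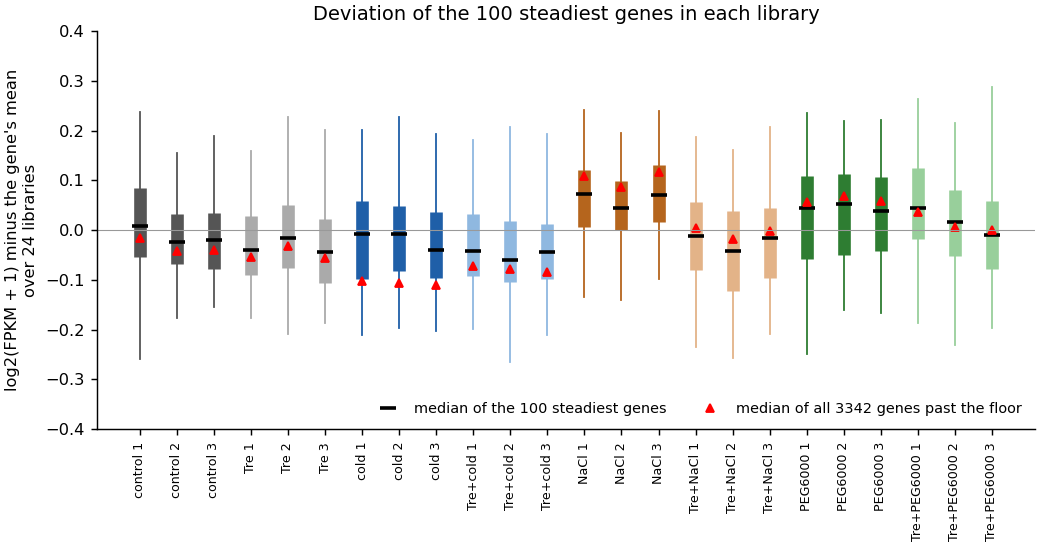
Deviation of the 100 steadiest genes from their own mean of log2(FPKM + 1) in each library: thin lines span all 100 genes, thick bars the quartiles, black marks the median, and red triangles the median over all genes past the floor. The NaCl libraries have medians of 0.05 to 0.07 and the PEG6000 libraries of 0.04 to 0.05, and no gene lies beyond 0.29 in either direction.

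Libraries of 1 group behaved alike with a few exceptions. The library Tre+NaCl 2 held the lowest of the 24 values for 18 of the 100 genes and Tre+cold 2 for 12, while PEG6000 2 and Tre+PEG6000 1 held the highest for 13 and 12. The 3 Tre+PEG6000 libraries had median deviations of 0.04, 0.02 and -0.01.

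The rule was next applied with some libraries left out of the choice, which gave lists other than the 100 genes. Lists chosen without replicate 1, 2 and 3 shared 79, 88 and 82 genes with the 100. Replicates of a group correlated at 0.994 to 0.997, so small ranges in a left-out replicate were nearly assured. When the 100 steadiest genes were chosen without 1 replicate number in every group and measured in the 8 libraries of that number, the median range was 0.30, 0.30 and 0.29, against 0.84, 0.83 and 0.84 for the genes past the floor. In each case 100 of the 100 chosen genes were below the median of the genes past the floor, 0 reached 2-fold, and 54 to 59 were among the 100 smallest ranges of the left-out libraries. Each group mean there is a single library, which adds replicate noise to both values.

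A second pair of choices crossed the trehalose treatment. The groups with and without trehalose carry the same cold, NaCl and PEG6000 stresses, so small ranges on the other side were partly built in. The 100 genes steadiest in control, cold, NaCl and PEG6000 leaves had a median range of 0.16 in these groups and of 0.24 in the 4 groups with trehalose, where the genes past the floor had 0.52. Of them 97 were below that median and none had a range of 2-fold or more, the highest being 0.77. Only 12 of them were among the 100 smallest ranges in the groups with trehalose. In the opposite direction, genes chosen on the 4 groups with trehalose had a median range of 0.09 there and of 0.37 in the groups without it, where the genes past the floor had 0.78. Of these, 93 were below the median and 1 passed 2-fold, with a range of 1.15. Again only 12 were among the 100 smallest ranges in the groups not used for the choice. In limma's F test 87 of the first 100 genes differed among the groups with trehalose, beside 95.3% of genes tested and 97.8% of genes past the floor. Of the second 100 genes 96 differed among the groups without trehalose, beside 96.9% and 99.3%. Of the 100 genes steadiest over all 8 groups, 55 were in the first choice and 19 in the second.

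The choice of genes changed with the scale. The libraries were rescaled by 3 further methods: to a common sum of FPKM, by median-of-ratios factors, which set the median ratio to the average library to 1 over genes above 0 everywhere, and by quantile normalization, which gives all libraries one distribution. A choice by the same rule kept 83 of the 100 genes with the common sum, 26 with quantile normalization and 3 with median-of-ratios factors. No gene was among the 100 under all 4 scalings, and 24 were under the other 3. The largest range of each gene over the 4 scalings had a median of 0.51 in the 100 genes (0.29 to 0.74). In the genes past the floor this median was 0.98. By this measure 32 of the 100 genes were among the 100 smallest. FPKM as deposited, which chose the genes, is 1 of the 4 scalings. The median range of the 100 genes went from 0.26 to 0.28 with the common sum, to 0.32 with quantile normalization and to 0.50 with median-of-ratios factors. Under the last scaling their median rank by range was 632 among the 93 that stayed past the floor, out of 3430 genes.

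Median-of-ratios factors moved nearly all members to the same side of control in cold, Tre+cold, NaCl, Tre+NaCl and Tre+PEG6000. These factors divide every gene of a library by the same number. A joint shift of genes chosen for small differences therefore follows from the scaling and the choice. In FPKM as deposited the median log2 difference from control was -0.01 in cold, with 46 genes higher and 54 lower. With median-of-ratios factors it was 0.27, and 99 of the 100 genes were higher in the cold. For NaCl the median moved from 0.07 to -0.12 and for Tre+PEG6000 from 0.04 to -0.16, with 92 and 94 genes lower. For Tre+cold it moved from -0.05 to 0.16, with 93 genes higher, and for Tre+NaCl from -0.02 to -0.16, with 92 lower. Over all 20053 genes tested the median difference between cold and control moved from -0.20 to 0.01. Relative to the median gene tested, the 100 genes were thus higher in the cold on both scales. The same held for the genes past the floor, whose median moved from -0.06 to 0.21, so it is not particular to the 100 genes. With quantile normalization the largest shift was in PEG6000, where the median was -0.20 and 95 genes were lower.

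**Figure D4:**
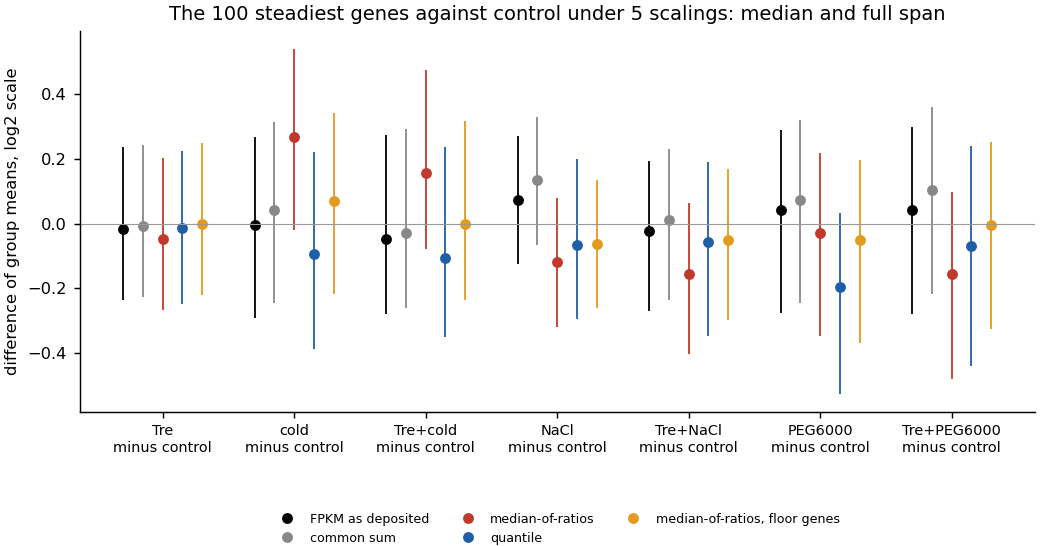
Difference of each treated group from control in group means of log2(value + 1) for the 100 steadiest genes under 5 scalings: points are medians and lines span all 100 genes. In FPKM as deposited (black) the medians lie between -0.05 and 0.07, and with median-of-ratios factors (red) between -0.16 and 0.27.

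The calls of the 100 genes turned with the scale as well. Cold against control called 93 of the 100 genes with median-of-ratios factors, all higher, where 82% of genes tested were called, 42% as higher and 40% as lower. As deposited, 24 were higher and 27 lower. NaCl called 61 with these factors, all lower, beside 60% of genes tested (29.4% higher and 30.6% lower), where FPKM as deposited gave 41 higher and 4 lower. PEG6000 called 78 with quantile normalization, all lower, beside 78.9% of genes tested (31.8% higher and 47.1% lower), where the deposited scale gave 43 higher and 21 lower. The number called under NaCl and PEG6000 was thus near the share of genes tested. For genes past the floor the shares called were not computed on these scales. Their median differences from control were 0.21 in cold and -0.06 in NaCl with median-of-ratios factors. In PEG6000 with quantile normalization their median difference was -0.11.

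With trehalose the balance turned too. Tre+NaCl against NaCl called 50 as deposited, 47 of them lower. It called 33 with median-of-ratios factors, 22 of them lower, beside 50.6% of genes tested. With quantile normalization it called 37, of which 21 were higher, beside 51.8%. Tre+PEG6000 against PEG6000 called 22 higher and 30 lower as deposited. It called 5 higher and 67 lower with median-of-ratios factors, beside 35.4% and 39.7% of genes tested. With quantile normalization it called 57 higher and 7 lower, beside 39.4% and 34.8%.

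The low genes of the table take part in median-of-ratios factors. When the factors were computed from the genes past the floor alone, an alternative chosen after seeing the data, 45 of the 100 genes were kept. The median range over all 100 genes was 0.26 on that scale. The median difference between cold and control was then 0.07 and that between NaCl and control -0.06. The calls still turned on that scale. NaCl called 5 higher and 41 lower (33.9% and 26.4% of genes tested), against 41 and 4 as deposited. PEG6000 called 19 and 40 (38.1% and 39%), against 43 and 21. Tre+NaCl against NaCl called 25 and 13 (30% and 21.9%), against 3 and 47.

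The 3 genes kept with median-of-ratios factors were Vitvi01g00706, Vitvi04g00628 and Vitvi14g01032, named after their values were seen. Vitvi04g00628 had ranges of 0.29, 0.28, 0.27 and 0.29 as deposited, with the common sum, with median-of-ratios factors and with quantile normalization. It was at 24.5, 25.5 and 26.5 FPKM in control, at 22.2, 23.3 and 24.6 in cold, and highest in Tre, at 27.6, 30.1 and 27.4. Vitvi01g00706 had ranges of 0.27, 0.32, 0.24 and 0.30 in the same order, and ran from 37.1 ± 2.4 FPKM in Tre+cold to 45.0 ± 1.5 in Tre+PEG6000 (SD, n = 3). Vitvi14g01032 had 0.29, 0.33, 0.28 and 0.27, with 42.9 ± 1.3 FPKM in Tre+cold and 52.6 ± 0.40 in Tre+PEG6000. In all 3 genes the cold libraries had a lower mean than control in FPKM. Median-of-ratios factors raised the cold libraries relative to control, so keeping a small range under these factors favoured such genes. The shared direction therefore follows at least partly from how the genes were picked and is not a separate finding.

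Other choices mattered to differing degrees. Replacing the range by the SD of the group means kept 83 of the 100 genes, by the range over 24 libraries 73 and by the coefficient of variation 75. A floor of 10 FPKM admitted 6045 genes and kept 61, and a floor of 50 FPKM, which only 29 of the 100 genes pass, kept these 29. Leaving both cold groups out kept 30, leaving both PEG6000 groups out 42 and leaving both NaCl groups out 61.

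**Figure D5:**
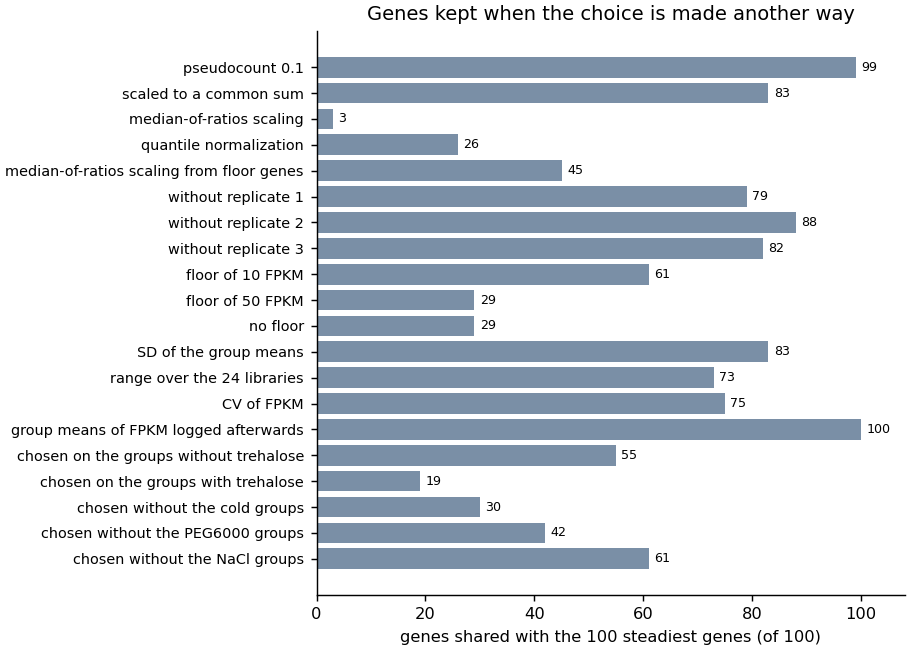
Number of the 100 steadiest genes that are kept when the choice is made another way. Averaging before taking the logarithm keeps all 100, a pseudocount of 0.1 keeps 99, and median-of-ratios scaling keeps 3.

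The identifiers give one more property that the rule did not use. The digits after Vitvi name, in grapevine nomenclature, the chromosome, except 00, which 1 of the 100 genes and 22 of the genes past the floor carry. The 100 genes are 2.99% of the genes past the floor. The 100 genes carried 12 identifiers of chromosome 5, of 196 such genes past the floor (6.12%), 10 of chromosome 18 (4.12% of 243) and 9 of chromosome 3 (5.63% of 160). Chromosome 2 had 1 of 146 (0.685%) and chromosome 13 had 2 of 168 (1.19%). None of the 16 genes past the floor with PT_newGene identifiers, a second kind in the table, was among the 100. No test was made of these counts.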

How the data were processed

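The authors deposited 1 table of FPKM values with 1 column per sample, not pooled over replicates. Per the submitters' processing notes, the tools were StringTie 2.1.3b, HISAT2 2.1.0, SAMtools 1.9 and fastp 0.20.0, with no role or order stated. Genome build, annotation and strandedness were not given in the sources used here. Columns were assigned to samples by name and samples to groups by their titles, with 0 columns unused. Reads of near-identical or overlapping genes may have been divided between them, which FPKM does not resolve. Depth is unknown, so no count test and no counting interval was made.

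The test took 20053 genes, those that reached 1 FPKM in 3 or more libraries. They were tested with limma 3.58.1 in R 4.3.3 on log2(FPKM + 1) (lmFit, and eBayes with a trend), with 1 mean per group, which leaves 16 residual degrees of freedom. Tests were two-sided, with Benjamini-Hochberg adjustment over all genes of a comparison. On this scale a log2 change understates the change of low genes, little so above 20 FPKM. The fit was tested on simulated data. Plots were made in matplotlib 3.10.9 under Python 3.11.15.

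The 100 genes, the comparisons and the lists were chosen with earlier results of these data known. Named genes are the 5 with the smallest range, the 3 most and 3 least abundant, the 3 just inside and 3 just outside the limit, those among the 100 under all 4 scalings (there were 0), and per comparison the called gene with the largest rise and fall. Alternatives covered the pseudocount, the floor, the measure of spread, the scaling, the groups used, a replicate block and leaving out libraries.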

Additional observations from a re-analysis of the deposited data

Results flagged for a closer look

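The effect of trehalose under a stress was compared with its effect in unstressed leaves, as a log2 difference of differences in the limma fit. The comparisons share libraries with those that chose the genes, so the values are descriptions. Only values of named genes that were called are listed. Of all 100 genes 14 were called for cold, 36 for NaCl and 41 for PEG6000, beside 35.6%, 43% and 67.5% of genes tested. As deposited, 7 were higher and 7 lower for cold, 7 and 29 for NaCl, and 24 and 17 for PEG6000. All 29 listed values of named genes kept their direction under every scaling and left-out library run, and 17 of them also kept their call. They were listed because they were called, and over all 100 genes the balance turned with the scale. For NaCl it was 20 higher and 9 lower with median-of-ratios factors (20.7% and 21.9% of genes tested) and 22 and 12 with quantile normalization (24.2% and 20.2%). For PEG6000 it was 10 and 41 (32.2% and 33.6%), and 48 and 3 (36.5% and 28.6%), in the same order.

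For cold the log2 differences were -0.24 for Vitvi18g01161 (SE 0.05, limma adjusted p = 0.000369), 0.18 for Vitvi04g01541, -0.16 for Vitvi14g01694 and 0.24 for Vitvi06g00312. Vitvi04g01541 was at 42.6 ± 0.90 FPKM in Tre and 48.1 ± 2.5 in control, and at 39.5 ± 1.4 in Tre+cold and 39.1 ± 1.4 in cold (SD, n = 3). Vitvi06g00312 was at 22.0 ± 0.43 FPKM in Tre and 26.1 ± 1.3 in control, and at 23.3 ± 0.72 in Tre+cold and 23.3 ± 0.64 in cold (SD, n = 3). Vitvi18g01161 was at 193 ± 0.97 FPKM in Tre+cold and 215 ± 5.4 in cold, and at 212 ± 2.3 in Tre and 200.3 ± 5.8 in control (SD, n = 3).

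For NaCl the log2 differences that kept their call throughout were -0.43 for Vitvi18g01971 (SE 0.09, limma adjusted p = 0.000483), -0.34 for Vitvi01g00524, -0.28 for Vitvi19g00612, -0.22 for Vitvi14g00349, 0.24 for Vitvi10g02178 and 0.17 for Vitvi04g01541. The others were -0.24 for Vitvi06g00840, -0.20 for Vitvi03g00200, -0.19 for Vitvi16g01514, -0.17 for Vitvi05g01769, -0.15 for Vitvi19g00121, -0.13 for Vitvi15g04595, -0.12 for Vitvi09g00179 and 0.12 for Vitvi18g00333, and each lost its call in at least 1 scaling. Of these, Vitvi19g00121 also lost it without NaCl replicate 2 (-0.11), and Vitvi09g00179 without Tre replicate 2 (-0.10) or Tre+NaCl replicate 3 (-0.10). Vitvi16g01514 and Vitvi03g00200 lost it in 4 of 12 left-out libraries each, Vitvi18g00333 in 7, and Vitvi05g01769 and Vitvi15g04595 in 9.

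For PEG6000 the log2 differences that kept their call throughout were -0.38 for Vitvi18g01971, -0.31 for Vitvi19g00612 (SE 0.05, limma adjusted p = 9.72e-06), 0.27 for Vitvi03g00200, 0.25 for Vitvi10g02178, 0.24 for Vitvi04g01541, 0.21 for Vitvi18g00333 and 0.21 for Vitvi19g01641. Vitvi07g01492 (0.20) and Vitvi14g01032 (0.14) lost it with median-of-ratios scaling. Vitvi06g00743 (-0.20) lost it in 2 scalings and in 6 of 12 left-out libraries, and Vitvi14g01385 (-0.14) in 2 scalings and without control replicate 3 or PEG6000 replicate 1 (-0.11 in both).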

How the results depend on the processing

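Recomputed counts of called genes were compared as totals, without direction. NaCl against control, with 41 higher and 4 lower as deposited but 0 and 61 with median-of-ratios scaling, therefore counts as having stayed. So does PEG6000 against control, with 43 and 21 as deposited but 0 and 78 with quantile normalization. Of 253 recomputed counts and summary values, 238 stayed within 1.5 times the count or within the replicate spread, and 15 did not. Genes kept of the 100 were 3 with median-of-ratios scaling, 26 with quantile normalization, 45 with median-of-ratios factors from the genes past the floor, 61, 29 and 29 with a floor of 10 FPKM, 50 FPKM and none, 55 and 19 when chosen without and with trehalose, and 30, 42 and 61 without the cold, PEG6000 or NaCl groups. The median range moved to 0.50 with median-of-ratios scaling and 0.32 with quantile normalization. Genes called numbered 93 in cold against control and 33 in Tre+NaCl against NaCl with median-of-ratios scaling, beside 82% and 50.6% of genes tested. For these the cause was not tested, except that a floor of 50 FPKM admits only 29 of the 100 genes. The factors from the genes past the floor and the choices without a stress were added after the data were seen. Leaving out 1 library gave 45 to 50 called genes in cold, 37 to 43 in NaCl, 57 to 64 in PEG6000 and 17 to 23 in trehalose against control, and leaving out 1 replicate number kept 79 to 88 genes. Samples with the same replicate number did not deviate together (correlations -0.10 to 0.09 over 84 pairs), and with a replicate block 50 genes were called in cold, 45 in NaCl, 64 in PEG6000 and 19 in trehalose against control, and 97 in any difference among the 8 groups. No value of a single named gene turned its direction under the settings run for it. The unknown depth leaves the counting error of these values unknown.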
